A study of Mus musculus with 8 samples.

Results

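Transcripts of the AMPA-type glutamate receptor and of its TARP partners were followed in nuclei of cortical GABAergic neurons. The group holds 10 genes, chosen by name from the 55341 gene symbols of the count files. They are the pore-forming subunit genes Gria1, Gria2, Gria3 and Gria4 and the TARP genes Cacng2, Cacng3, Cacng4, Cacng5, Cacng7 and Cacng8. The series compared 2 groups of juvenile mice whose exact age is not given in the sources used here. In the PTU group (mice 9 to 12, n = 4) hypothyroidism had been induced by giving propylthiouracil, which blocks thyroid hormone synthesis, to the pregnant dams. The PTU+TH group (mice 13 to 16, n = 4) had the same propylthiouracil exposure and was injected intraperitoneally with thyroid hormone 24 h before the brain was collected. Every mouse carried a Cre-dependent reporter that made the nuclei of GABAergic neurons fluorescent, and these nuclei were sorted. Both groups had received propylthiouracil, so no euthyroid level is part of the comparison. The driver of the Cre recombinase is not given in the sources used here.

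AMPA receptors are tetrameric cation channels that carry most of the fast excitatory current onto neurons, inhibitory neurons included. Receptors that contain the edited GluA2 subunit (from Gria2) pass little calcium, and fast-spiking interneurons are known for receptors rich in GluA1 and GluA4 (from Gria1 and Gria4) and poor in GluA2. TARPs are membrane proteins with a claudin-like fold that accompany the receptor, and those of type I bring it to the surface and slow its closing. The type I TARPs are stargazin (Cacng2) and the products of Cacng3, Cacng4 and Cacng8, and the type II TARPs come from Cacng5 and Cacng7.

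The stretch around the edited codon of Gria2 is shown first, because an enzyme known to edit it was among the genes that changed. Each run is 45 bases of the coding strand from the GENCODE M21 transcripts (build GRCm38), 5′ to 3′, and the capitals mark the glutamine codon at the position where Gria2 RNA is edited to arginine. The count files do not report editing.
Gria1: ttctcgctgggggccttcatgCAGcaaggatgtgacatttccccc
Gria2: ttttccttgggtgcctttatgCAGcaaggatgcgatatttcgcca
Gria3: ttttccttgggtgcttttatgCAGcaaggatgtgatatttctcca
Gria4: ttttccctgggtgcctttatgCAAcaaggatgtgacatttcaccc
These stretches lie at chr11:57243073-57243117 (plus strand, exon 11 of the transcript read), chr3:80706890-80706934 (minus strand, exon 11), chrX:41610244-41610288 (plus strand, exon 11) and chr9:4464116-4464160 (minus strand, exon 12). Compared with Gria2, the Gria3 stretch differed at 3 of 45 bases, Gria4 at 6 and Gria1 at 9, and all 4 stretches hold a glutamine codon at this position in the genome.

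All 10 genes passed the filter on low counts, and 0 of 10 were called different between PTU+TH and PTU (edgeR quasi-likelihood test, Benjamini-Hochberg adjusted p under 0.05 over 17355 genes). Over all genes tested, 2.12% were called. At an unadjusted p under 0.05, 1 of the 10 genes passed (Cacng2), against 12.8% of all genes, and DESeq2 and limma voom also called 0. In 0 of 10 genes did the 4 libraries of a group all lie above those of the other, which 8.71% of all genes showed. The median log2 fold change was 0.10 over the 10 genes, -0.04 over the 4 Gria genes and 0.19 over the 6 TARP genes, beside -0.01 over all genes. A log2 fold change above 0 was found for 6 of the 10 genes and for 48.6% of all genes. Called genes did turn up next to these subunits, among other auxiliary proteins of the receptor and in an RNA editing enzyme.

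The hormone label was visible in each library. Hr, a gene induced directly by thyroid hormone, stood at 1.05 to 2.22 CPM (the usual depth-scaled count, here with TMM, a factor for library composition) in PTU and at 24.7 to 28.5 CPM in PTU+TH. Library totals ran from 21762810 to 29084071 counts. Of the GABAergic markers, Gad1 and Gad2 ranged over 389 to 546 CPM and 392 to 481 CPM over the 8 libraries and Slc32a1 over 9.01 to 21.1 CPM, with log2 fold changes of -0.16, 0.10 and 0.33 and no call, while Dlx1 and Dlx6 of the same list were listed at 0. A 0 is not read as absence here, because all protein-coding genes inside another gene were listed at 0. The 6 excitatory neuron markers summed to 36.2 to 103 CPM in the PTU mice, against 44.3 to 117 CPM in the PTU+TH mice, with 0 of 6 called. PTU+TH mice 15 and 16 had 0 counts from 4 Y-linked genes and the other 6 libraries had 7960 to 11548. The labels give no sex, so sex and hormone cannot be fully told apart.

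Libraries also differed in the level of long genes. The median log2 deviation of 2456 genes over 100 kb, with the genes described here left out, was -0.25, -0.10, 0.20 and 0.12 in PTU mice 9, 10, 11 and 12 and -0.06, -0.05, 0.03 and 0.15 in PTU+TH mice 13, 14, 15 and 16. No difference between the groups was detected in it (exact permutation test, two-sided, n = 4 each, p = 0.83). It matters here because the Gria genes are long and most of them varied with it.

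Among the pore-forming subunits, Gria1 (chromosome 11, 57011387 to 57330244), which encodes GluA1, had the largest difference and the widest spread. It stood at 2250, 2565, 4637 and 3849 CPM in PTU mice 9 to 12 and at 2181, 2416, 2480 and 3295 CPM in PTU+TH mice 13 to 16. The groups overlapped, with the highest values in PTU mice 11 and 12 and PTU+TH mouse 16, the 3 libraries with the highest long-gene level. The log2 fold change was -0.36 (SE 0.25, 95% interval -0.90 to 0.19, edgeR adjusted p = 0.643). It was closer to 0 without PTU mouse 11 (-0.15) and in the surrogate variable fit (-0.18), and farther from it in the Y-linked covariate fit (-0.54), with no call in these 3 fits. With the long-gene level as a covariate, an alternative chosen after seeing the data, it was -0.37 (SE 0.06, edgeR adjusted p = 0.00157), in a fit that called 5.91% of all genes.

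Gria2 (chromosome 3, 80681450 to 80802835), the gene of the calcium-limiting subunit, was the steadiest of the 4. Its levels were 1189, 1231, 1231 and 1298 CPM in the PTU mice, against 1419, 1366, 1244 and 1241 CPM in the PTU+TH mice. The groups overlapped, and the log2 fold change was 0.09 (95% interval -0.22 to 0.40, edgeR adjusted p = 0.887). It was 0.06 without PTU+TH mouse 13 and 0.17 in the fits on Y-linked counts. Unlike Gria1, Gria2 did not have its highest values in the 3 libraries with the highest long-gene level.

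Gria4 (chromosome 9, 4417896 to 4796234) encodes GluA4, a subunit typical of fast-spiking interneurons. It stood at 832, 959, 1294 and 1153 CPM in the PTU mice, against 980, 1020, 875 and 1237 CPM in the PTU+TH mice. Mice 11 and 16 were highest in their groups and the groups overlapped almost fully. The X-linked Gria3 (41400854 to 41678601) encodes GluA3 and ranged from 467 to 665 CPM in the PTU mice, against 495 to 604 CPM in the PTU+TH mice. Their log2 fold changes were -0.04 (95% interval -0.42 to 0.34) for Gria4 and -0.03 (95% interval -0.35 to 0.29) for Gria3, with edgeR adjusted p-values of 0.966 and 0.975. The intervals of Gria2, Gria3 and Gria4 were thus narrower than that of Gria1, whose lower bound lay farther from 0.

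**Figure D1:**
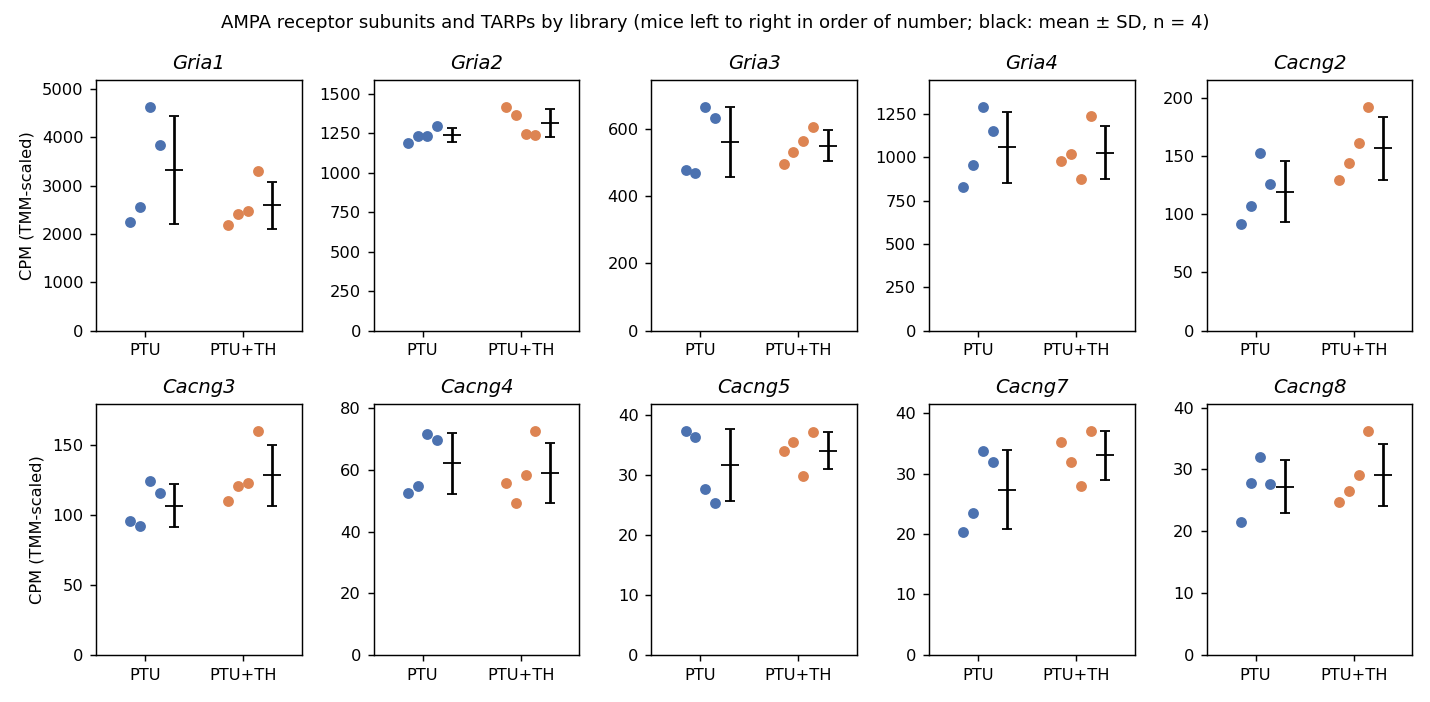
Level of each of the 10 genes in TMM-scaled CPM (vertical axes start at 0), 1 point per library, PTU in blue and PTU+TH in orange, with the mean and SD of 4 libraries in black. The 2 groups overlap in all 10 genes, and Gria1 spreads from 2250 to 4637 CPM within PTU alone.

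**Figure D2:**
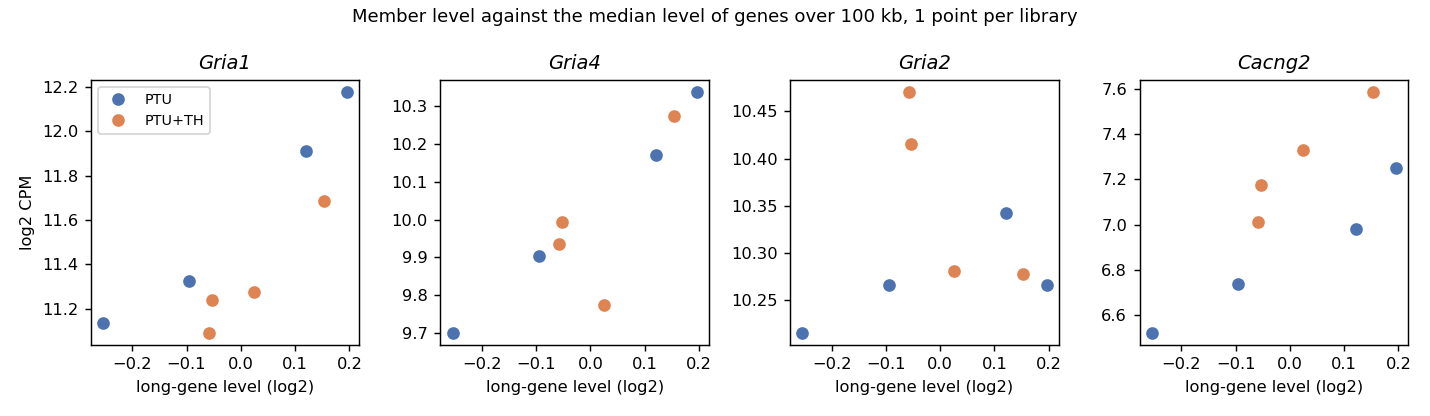
Level of Gria1, Gria4, Gria2 and Cacng2 (log2 CPM) against the median log2 deviation of genes over 100 kb, 1 point per library, with axes that do not start at 0. At a given long-gene level, Cacng2 lies higher in PTU+TH than in PTU, and Gria1 lies lower.

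Among the type I TARPs, Cacng2 (chromosome 15, 77991748 to 78120028), the gene of stargazin, came closest to a call. It stood at 91.9, 106.7, 152.4 and 126.1 CPM in the PTU mice, against 128.9, 144.3, 160.7 and 192.3 CPM in the PTU+TH mice. PTU mouse 11 lay above PTU+TH mice 13 and 14, and the other 3 PTU libraries lay below all 4 PTU+TH libraries. The log2 fold change was 0.39 (SE 0.16, 95% interval 0.05 to 0.74, edgeR adjusted p = 0.302, unadjusted p = 0.0287). It passed the threshold with the long-gene level as a covariate (0.36, SE 0.07, edgeR adjusted p = 0.00774) and, at an edgeR adjusted p of 0.0492, with a surrogate variable estimated from all genes, a fit that called 4.1% of all genes. In the other 17 alternatives it was not called, and without PTU+TH mice 15 and 16 it was 0.20 with an edgeR adjusted p of 0.89.

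Cacng3 (chromosome 7, 122670492 to 122769393), a close relative of stargazin, stood at 95.5, 92.1, 124.3 and 115.8 CPM in the PTU mice, against 110.0, 120.9, 123.2 and 160.3 CPM in the PTU+TH mice. PTU+TH mouse 16 was the highest and the other 3 PTU+TH libraries lay within the PTU range, and the log2 fold change was 0.27 (95% interval -0.02 to 0.55, edgeR adjusted p = 0.432). Without PTU+TH mouse 16 it was 0.14, and in the fits on Y-linked counts it was 0.11. Cacng4 (chromosome 11, 107732357 to 107794557) was the TARP with a log2 fold change below 0. It ranged from 52.6 to 71.7 CPM in the PTU mice, against 49.4 to 72.7 CPM in the PTU+TH mice, nearly the same range (log2 fold change -0.07, 95% interval -0.36 to 0.22, edgeR adjusted p = 0.911). Cacng8 (chromosome 7, 3390683 to 3415648), the TARP known from the hippocampus, ranged from 21.4 to 32.0 CPM in the PTU mice, against 24.7 to 36.2 CPM in the PTU+TH mice (log2 fold change 0.10, edgeR adjusted p = 0.876). Only 62.3% of its body is free of other genes, which makes its counts uncertain.

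Neither type II TARP was called. Cacng7 (chromosome 7, 3332955 to 3368221) stood at 20.3, 23.4, 33.7 and 32.0 CPM in the PTU mice, against 35.3, 32.0, 27.9 and 37.1 CPM in the PTU+TH mice. PTU mice 9 and 10 were the lowest, and the other PTU libraries lay within the PTU+TH range (log2 fold change 0.28, 95% interval -0.07 to 0.62, edgeR adjusted p = 0.54). Without PTU mouse 9 it was 0.16. Cacng5 (chromosome 11, 107874605 to 107915055) stood at 37.4, 36.4, 27.8 and 25.4 CPM in the PTU mice, against 34.0, 35.5, 29.9 and 37.2 CPM in the PTU+TH mice. It was the member whose low PTU values fell in mice 11 and 12, where most other members were high (log2 fold change 0.10, edgeR adjusted p = 0.849). Fits without 1 library put it between 0.01 (without PTU mouse 12) and 0.20 (without PTU mouse 9). The relatives Cacng1, a subunit of the muscle calcium channel, and Cacng6 are not TARPs and were near the limit of counting, with 28 to 74 and 10 to 28 counts per library and edgeR adjusted p-values of 0.738 and 0.944.

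Levels of different genes can be compared only per length. Per kb of gene body, the order of the mean level over 8 libraries was Gria2 (10.5 CPM per kb), Gria1 (9.28), Gria4 (2.76), Gria3 (2.00), Cacng3 (1.19), Cacng8 (1.13), Cacng2 (1.08), Cacng4 (0.975), Cacng7 (0.856) and Cacng5 (0.814). The ranges over libraries of Gria2 and Gria1 overlapped, as did those of Gria4 and Gria3 and those of each TARP and its neighbour in the order. Gria1 and Gria4 were separated (lowest 6.84 against highest 3.42 CPM per kb), and so were Gria3 and Cacng3 (1.68 against 1.62). On this scale all 4 Gria genes lay above all 6 TARP genes. Per kb of merged exons Gria3 (47.4 to 67.5 CPM per kb) and Cacng3 (33.1 to 57.7) overlapped, and the order of the AMPA subunits was different, with Gria1 at 490, Gria4 at 166 and Gria2 at 82.2 CPM per kb. Nuclear RNA holds introns, and the files do not say whether reads in introns were counted. All 1262 protein-coding genes wholly inside another gene were at 0, which counting over whole gene bodies would give. The order per kb of gene body is therefore the main one here.

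Ratios within a library leave out differences in scaling between libraries, but not those in the level of long genes. They are given as descriptions with no test. They show unequal change of 2 quantities, not which of them changed. Summed TARP counts per 100 summed Gria counts were 6.72, 6.53, 5.64 and 5.72 in PTU and 7.66, 7.66, 8.31 and 8.40 in PTU+TH. The groups did not overlap, with a mean of 6.15 ± 0.55 in PTU and 8.01 ± 0.40 in PTU+TH (SD, n = 4 each). With counts per kb of gene body the ratio was 21.1 to 23.7 in PTU and 25.5 to 29.6 in PTU+TH. With Gria1 left out of the sum the groups overlapped, at 12.8 to 13.8 in PTU and 13.4 to 17.4 in PTU+TH.

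Within the TARPs, the share of Cacng4 was 16.5%, 16.0%, 16.2% and 17.6% of the summed TARP counts in the PTU mice and 14.4%, 12.1%, 13.6% and 13.6% in PTU+TH. It was the 1 share of the 10 whose groups did not overlap, and this also held per kb of gene body (16.5% to 18.9% against 13.3% to 15.4%). Cacng2 made up 31.6% ± 2.3 of TARP counts in the PTU mice and 35.5% ± 1.8 in PTU+TH (SD, n = 4 each), and per 100 counts of Cacng4 there were 175 to 213 counts of Cacng2 in PTU and 231 to 292 in PTU+TH. Single genes without overlap between groups were 8.71% of all tested, and how often shares or ratios separate the groups was not measured.

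Within the Gria genes, Gria1 made up 52.8% ± 5.5 of the summed counts in the PTU mice and 47.0% ± 3.7 in PTU+TH, and Gria2 20.8% ± 4.3 and 24.3% ± 3.6 (SD, n = 4 each). Both shares overlapped between the groups. Per kb of gene body, the mean share over 8 libraries was 43.5% for Gria2 and 37.2% for Gria1. Counts of Gria1 per 100 counts of Gria2, the gene of the calcium-limiting subunit, were 189, 208, 377 and 297 in PTU and 154, 177, 199 and 266 in PTU+TH. PTU mice 9 and 10 lay within the PTU+TH range and PTU mice 11 and 12 above it. The highest ratios were those of PTU mice 11 and 12 and PTU+TH mouse 16, the libraries with the highest long-gene level. Gria1 is the longer gene, and the part of gene length in this ratio was not tested.

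**Figure D3:**
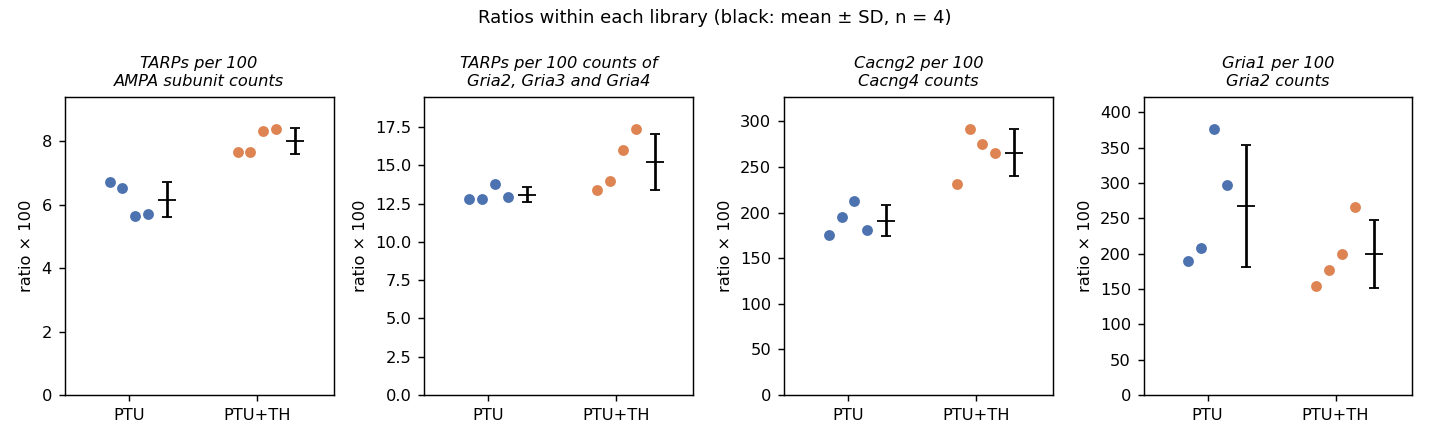
Ratios of counts within each library, multiplied by 100, for 4 pairs of quantities (axes start at 0), PTU in blue, PTU+TH in orange, mean and SD of 4 libraries in black. TARPs per 100 AMPA subunit counts separate the groups (at most 6.72 against at least 7.66), and the groups overlap once Gria1 is left out.

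The receptor has further auxiliary and assembly proteins, listed from general knowledge but with earlier results of these data known. The list is thus not independent of the data. Of 17 such genes tested, 3 rose and 1 fell in PTU+TH (edgeR adjusted p under 0.05, against 1.49% of all genes called higher and 0.634% called lower), and 6 of 17 had groups that did not overlap, against 8.71% of all genes. The median log2 fold change was -0.04, with a range from -0.84 to 1.24, wider than that of the 10 subunit and TARP genes (-0.36 to 0.39). The list thus held genes that went in opposite directions.

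Gsg1l (chromosome 7, 125878420 to 126082411) encodes a claudin-fold protein related to the TARPs that, unlike stargazin, dampens the receptor's response. It fell from 30.1, 29.1, 33.0 and 26.5 CPM in the PTU mice to 15.4, 17.6, 14.2 and 19.3 CPM in the PTU+TH mice. All 4 PTU+TH libraries lay below all PTU libraries (a log2 fold change of -0.84, SE 0.12, edgeR adjusted p = 0.00325). Counts of Gsg1l per 100 counts of Cacng2 were 21.0 to 32.8 in PTU and 8.82 to 12.2 in PTU+TH.

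Shisa8 (chromosome 15, 82206168 to 82212815) belongs to the CKAMP family of AMPA receptor partners. It rose from 3.75, 3.76, 3.17 and 4.02 CPM in the PTU mice to 9.32, 8.84, 7.91 and 8.80 CPM in the PTU+TH mice (log2 fold change 1.24, SE 0.17, edgeR adjusted p = 0.00149), with every PTU+TH library above every PTU library. Of its family members on the list, none of the other 3 was called, and whether they differ from Shisa8 in response was not tested. Shisa9 spread from 305 to 607 CPM in the PTU mice, against 510 to 777 CPM in the PTU+TH mice (log2 fold change 0.47, edgeR adjusted p = 0.381), Shisa7 had a log2 fold change of -0.25 with no overlap between groups (edgeR adjusted p = 0.175) and Shisa6 one of -0.15 (0.886). Only 71.5% of the Shisa6 body is free of other genes. Shisa9, a long gene, was chosen for mention after its values were seen, as were Shisa6, Shisa7, Cnih2 and Cnih3, and it was called with the long-gene level as a covariate (0.44, edgeR adjusted p = 0.00111).

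Syndig1 (chromosome 2, 149829211 to 150004392) encodes a transmembrane protein that promotes excitatory synapse formation and binds AMPA receptors. It rose from 83.3, 78.4, 93.2 and 98.6 CPM in the PTU mice to 120.8, 132.9, 155.7 and 163.8 CPM in the PTU+TH mice, with no overlap (log2 fold change 0.70, SE 0.11, edgeR adjusted p = 0.00546). Its relative Prrt1 (chromosome 17, 34629533 to 34633126), also called SynDIG4, rose from 17.1, 16.3, 16.4 and 13.7 CPM to 23.3, 23.2, 25.3 and 23.2 CPM (log2 fold change 0.58, SE 0.11, edgeR adjusted p = 0.0159), again with no overlap. These genes of related proteins thus changed in the same direction.

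Cnih3, a cornichon gene whose product slows the closing of the receptor, missed the threshold. It stood at 46.1, 46.6, 52.9 and 43.7 CPM in the PTU mice, against 31.1, 33.5, 39.0 and 37.6 CPM in the PTU+TH mice, with no overlap (log2 fold change -0.42, SE 0.10, edgeR adjusted p = 0.0545). Its edgeR adjusted p lay between 0.0127 and 0.161 over the edgeR alternatives, and DESeq2 gave 0.0113. The other cornichon gene on the list, Cnih2, had a log2 fold change of -0.34 with overlapping groups (edgeR adjusted p = 0.293).

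**Figure D4:**
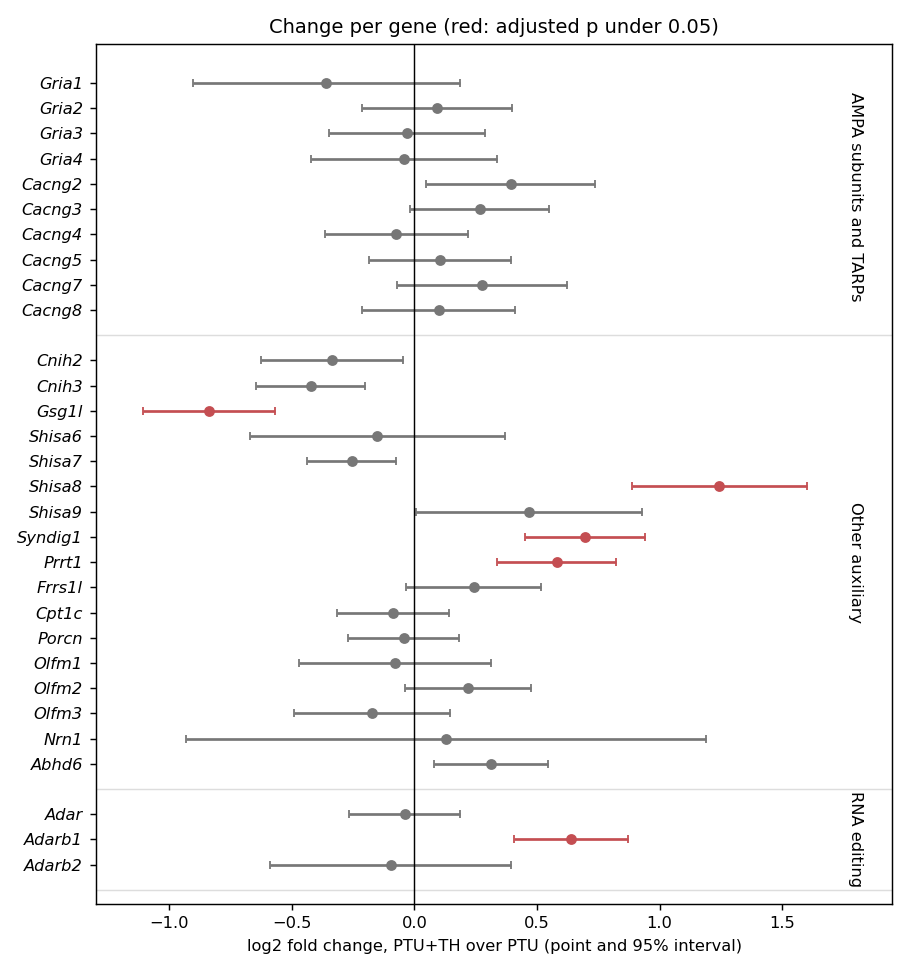
Log2 fold change of PTU+TH over PTU for the 10 AMPA subunit and TARP genes, 17 other auxiliary or assembly genes and 3 editing genes, as point and 95% interval from the edgeR fit, with genes called at an adjusted p under 0.05 in red. None of the 10 upper genes is red, and Gsg1l (-0.84) and Shisa8 (1.24) stand farthest from 0.

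The 3 genes of the ADAR family were looked at because editing sets the calcium permeability of GluA2 receptors. Adarb1 (chromosome 10, 77290726 to 77418270) encodes ADAR2, the enzyme known to edit the Gria2 codon shown above. It rose from 138.2, 138.1, 167.5 and 170.6 CPM in the PTU mice to 221.9, 246.6, 225.3 and 263.7 CPM in the PTU+TH mice, with every PTU+TH library above every PTU library (a log2 fold change of 0.64, SE 0.11, edgeR adjusted p = 0.00689). Adar was at a log2 fold change of -0.04 and Adarb2 at -0.10, neither called (edgeR adjusted p of 0.945 and 0.934).

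Of these called genes, Shisa8 kept its call in all 19 alternatives. Gsg1l lost it in the 6 libraries with Y-linked counts (edgeR adjusted p = 0.052), and Syndig1 and Adarb1 lost it there (0.131 and 0.116) and with the Y-linked level as a covariate (0.0623 and 0.067). Prrt1 lost it in 6 of 19 alternatives, among them without PTU mouse 12 (0.0518), without PTU+TH mouse 14 (0.0503) and without PTU+TH mouse 15 (0.0695), with an edgeR adjusted p of up to 0.217. All 5 kept their direction in each alternative. In the 6 libraries the log2 fold change was -0.85 for Gsg1l, 0.61 for Adarb1 and 0.55 for Prrt1, close to the values over 8 libraries, and 0.52 for Syndig1, below its 0.70 over 8 libraries.

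**Figure D5:**
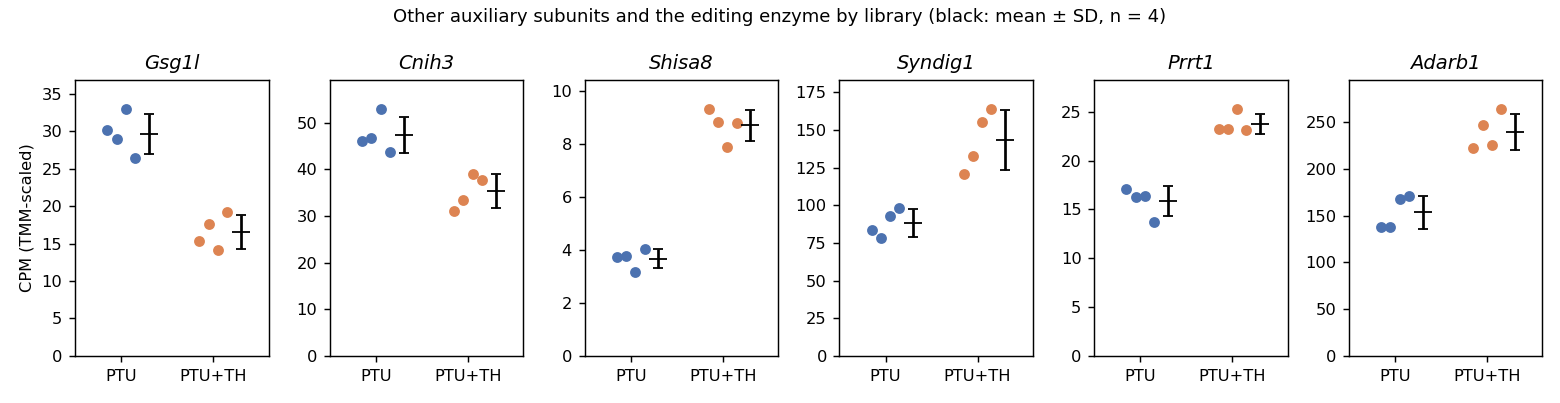
Level of 5 auxiliary subunit genes and of Adarb1 in TMM-scaled CPM (axes start at 0), 1 point per library, PTU in blue and PTU+TH in orange, with mean and SD of 4 libraries in black. In all 6 genes every library of a group lies on the same side of the other group, with Gsg1l and Cnih3 lower and Shisa8, Syndig1, Prrt1 and Adarb1 higher in PTU+TH.

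Scaffold, recycling and clustering genes that hold the receptor at synapses were listed in the same way. Of 18 genes, 16 were tested and 0 were called by edgeR, against 2.12% of all genes. An unadjusted p under 0.05 was reached by 2 of 16, against 12.8% of all genes, and 1 of 16 (Dlg1, named after its values were seen) had groups that did not overlap, against 8.71%. These shares lay near those of all genes, and the median log2 fold change was 0.04. Lrrtm1 and Lrrtm2 lie inside other genes and were listed at 0, a value that cannot be read as absence. Of the genes tested, Pick1 and Nptxr have only 1.07% and 18% of their bodies free of other genes, which makes their counts uncertain. The largest differences were those of Nptx1, a secreted pentraxin that clusters AMPA receptors (5.76 ± 2.56 CPM in the PTU mice, against 10.2 ± 1.81 CPM in the PTU+TH mice, SD over 4 mice; a log2 fold change of 0.82, edgeR adjusted p = 0.201), and of Arc, which drives receptor internalization (0.60, edgeR adjusted p = 0.439, and 0.37 without PTU mouse 11). Nptx1 overlapped between the groups only by PTU mouse 9 (8.60 CPM) above PTU+TH mouse 16 (8.33 CPM), and without PTU mouse 9 it was called (log2 fold change 1.08, edgeR adjusted p = 0.0465). It was also called with the surrogate variable (0.74, edgeR adjusted p = 0.0338) and with the long-gene covariate (0.99, edgeR adjusted p = 0.00165). At the other end were Akap5, an anchor for kinases and phosphatases (-0.35, edgeR adjusted p = 0.509, with -0.14 without PTU mouse 9 and -0.60 with the Y-linked covariate), and the scaffold gene Grip1 (-0.10, edgeR adjusted p = 0.951), whose body overlaps other genes in part.

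Promoter sequences were searched for AGGTCA, the core half-site of thyroid hormone receptors, on either strand (TGACCT on the printed strand), in the 300 bases from 250 before to 50 after a gene start. RefSeq promoters of build GRCm38.p6 were at hand for 7 of the 10 subunit and TARP genes. Of these, only Cacng8 held the letters, at 2 places, against 16.3% of all 32851 promoters with at least 1. Among the called genes with a promoter at hand (Shisa8, Syndig1, Prrt1 and Adarb1), Shisa8 held it at 1 place. These 2 promoters are printed because the letters occur in a gene that rose and in a gene that was not called, with capitals marking the matches.
Shisa8 promoter: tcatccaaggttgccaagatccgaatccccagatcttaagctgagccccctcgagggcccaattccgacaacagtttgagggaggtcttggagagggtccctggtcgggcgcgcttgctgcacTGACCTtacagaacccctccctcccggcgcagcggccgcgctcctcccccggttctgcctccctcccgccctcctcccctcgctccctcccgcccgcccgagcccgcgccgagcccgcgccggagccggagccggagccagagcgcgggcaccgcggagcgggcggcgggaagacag
Cacng8 promoter: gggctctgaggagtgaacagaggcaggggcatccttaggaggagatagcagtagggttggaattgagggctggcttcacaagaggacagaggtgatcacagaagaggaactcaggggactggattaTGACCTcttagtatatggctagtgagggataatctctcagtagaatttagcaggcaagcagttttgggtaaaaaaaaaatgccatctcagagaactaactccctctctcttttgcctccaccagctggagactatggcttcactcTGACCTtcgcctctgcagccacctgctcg
The Cacng8 stretch is set by a RefSeq start that lies inside the GENCODE gene body given above, not at its 5′ end. The same holds for the stretches searched for Cacng2, Cacng3 and Syndig1 and for a stretch of Cacng5. The printed stretches of Shisa8 and Cacng8 lie at chr15:82212766-82213065 (minus strand) and chr7:3393792-3394091 (plus strand). A match of this length is a description of the letters and not a binding site.

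Markers of cell classes were read beside these values. In the sorted nuclei the summed level of 5 PV class markers was 315.9 to 452.2 CPM in the PTU mice, against 369.0 to 482.1 CPM in the PTU+TH mice, with 1 of 5 called higher (Syt2) and 3 of 5 above 0 (median log2 fold change 0.34). That of 5 SST class markers was 1218 to 1672 and 975.9 to 1321 CPM, with 1 of 5 called lower (Calb1) and 5 of 5 below 0 (median -0.26). For VIP class markers the sums were 207.6 to 296.4 and 190.0 to 210.5 CPM, with 1 of 5 called lower (Htr3a), 4 of 5 below 0 (median -0.28), 3 of 5 at an unadjusted p under 0.05 and 2 of 5 not overlapping. For LAMP5 class markers the sums were 1166 to 1331 and 1020 to 1200 CPM, with 1 of 5 called higher (Gabrd) against 3 of 5 below 0 (median -0.09), Ndnf the lowest of them at -0.74 (edgeR adjusted p = 0.215). Over all genes, 1.49% were called higher and 0.634% lower, 12.8% had an unadjusted p under 0.05 and 8.71% had groups that did not overlap. These 5 genes are named after their values were seen. Fewer nuclei of a class and less RNA per nucleus cannot be told apart in pooled nuclei, and the part of class makeup in the results above was not tested. Astrocyte markers summed to 125.0 to 240.6 CPM in the PTU mice, against 127.2 to 366.4 CPM in the PTU+TH mice, and oligodendrocyte precursor markers to 8.27 to 24.0 and 10.4 to 33.0 CPM. Gpr17 of the precursor list was listed at 0, which is not read as absence. Oligodendrocyte markers summed to 89.3 to 106.8 and 84.0 to 172.9 CPM, with a median log2 fold change of 0.68 and 4 of 5 above 0. Microglia markers summed to 7.72 to 12.4 and 11.8 to 22.9 CPM, with a median of 0.63, 3 of 3 tested above 0 and P2ry12 listed at 0, again not read as absence. Endothelial markers summed to 17.7 to 130.1 and 23.6 to 90.4 CPM, with a median of -0.05. In these 5 lists 0 genes were called by edgeR, and 2 passed an unadjusted p under 0.05, Mobp of oligodendrocytes (log2 fold change 1.30, edgeR adjusted p = 0.364) and C1qa of microglia (1.09, edgeR adjusted p = 0.247), both named after their values were seen. Their part in the results above was not tested. With the excitatory list as a covariate, the 10 subunit and TARP genes again had 0 calls.

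Over the 8 libraries, the genes whose log2 CPM followed Cacng2 most closely among 11467 genes that averaged 5 CPM or more were Gm43175 (Pearson r = 0.992), Nrg2 (0.99) and Tmem108 (0.99). Nrg2 encodes a neuregulin. All 3 had a log2 fold change above 0 and no call (0.63, 0.31 and 0.54, with edgeR adjusted p = 0.349, 0.448 and 0.203). With 8 libraries that also differ in the long-gene level, such values are a description of these libraries.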

How the data were processed

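The deposited files list raw read counts for each gene symbol, 1 file per library and mouse, made by the authors from single-end Illumina reads of SMART-Seq v4 and Nextera XT libraries, per the labels' protocols. The submitters' processing notes name Bowtie2 2.5.3 and the build mm10 (GRCm38). The counting program, the annotation and the use of strand and introns are not given in the sources used here. All 55341 symbols occur in GENCODE M21, which gave positions and lengths. All 1262 protein-coding genes that lie wholly inside another gene had a count of 0 in each library, against 21.5% of genes that overlap none, so overlapping genes are uncertain.

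Groups came from the sample titles, and 1 library was 1 mouse. Library totals were 21762810 to 29084071 counts. Same-group libraries differed by 8.38 to 72.6 chi-square units per degree of freedom, so none was a copy. Counts were fitted with edgeR 4.0.16 in R 4.3.3 (filterByExpr, TMM, robust quasi-likelihood test, group as the only term), two-sided, with Benjamini-Hochberg adjustment over 17355 genes and a call at 0.05. Intervals of 95% use the fit's degrees of freedom. CPM values are counts after TMM scaling. The scripts were tested on simulated data. Alternatives were RLE scaling, library totals, other filters, DESeq2 1.42.0, limma 3.58.1 (voom), covariates (Y-linked genes, excitatory markers, a surrogate variable from sva 3.50.0), the 6 libraries with Y-linked counts, leaving out each library, and, chosen after seeing the data, the long-gene level.

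The 10 genes and the lists were chosen with earlier results of these data known. Named were the 10 genes, called genes of the 3 lists (or the 2 largest and 2 smallest changes where under 3 were called), Cacng1, Cacng6, Hr, Klf9 and the 3 genes most like the gene with the smallest p. Klf9, induced by thyroid hormone, rose with a log2 fold change of 1.37 (edgeR adjusted p = 0.00223), and was not called in the 6 libraries with Y-linked counts (1.23, edgeR adjusted p = 0.058).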

Additional observations from a re-analysis of the deposited data

Results flagged for a closer look

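In 52 sets of 4 libraries, single libraries far from the other 3 were sought, and 1 was found where chance gives about 2.6. The sets were the subunit and TARP genes, Cacng1, Cacng6, Hr, Klf9 and some genes of the lists, each in each group. Prrt1 stood at 25.3 CPM in PTU+TH mouse 15 and at 23.2 to 23.3 CPM in the other 3 PTU+TH libraries, a gap of 0.953 of the range of the 4. The gap is small beside the distance to the PTU libraries, which reached 17.1 CPM.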

How the results depend on the processing

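The labels name no litter or pairing, so no paired analysis was possible, and whether mice shared a litter is not known. Against 368 genes called (70.1% higher), DESeq2 called 748 (61.0% higher), the Y-linked covariate 132 (81.1%), the excitatory covariate 573, the surrogate variable 712, the 6 libraries with Y-linked counts 58 (89.7%) and the long-gene covariate 1026 (61.9%), and fits without 1 library called 182 (without PTU+TH mouse 15) to 499 (without PTU mouse 9). The 6 libraries hold fewer mice, and otherwise the cause was not tested. Of the 10 subunit and TARP genes, 1 was called with the surrogate variable (Cacng2), 2 with the long-gene covariate (Gria1 and Cacng2) and 0 in each of the other 17 alternatives. The 4 calls among auxiliary genes became 2 with the Y-linked covariate and 1 in the 6 libraries, 3 with library totals, 5 with DESeq2, the lightest filter and the excitatory covariate, and 6 with the surrogate variable and the long-gene covariate (Cnih3 and Shisa9 added), and were 3 to 4 without 1 library. The 1 call among editing genes became 0 in both Y-linked alternatives, and was 1 in each fit without 1 library. The 0 calls among scaffold genes became 1 with the surrogate variable (Nptx1) and 2 with the long-gene covariate (Nptx1 and Lrrtm4), and were 0 to 1 without 1 library.

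Values near 0 changed sign in some fits, with no call. Cacng8 was at -0.088 with the Y-linked covariate and -0.083 in the 6 libraries. With the excitatory covariate, Gria3 was at 0.012, Gria4 at 0.008, Grip1 at 0.058 and Adar at 0.001. With the surrogate variable, Gria3 was at 0.055, Gria4 at 0.046, Grip1 at 0.147, Adar at 0.028 and Adarb2 at 0.039. Over fits without 1 library the ranges were -0.101 to 0.064 (Gria3), -0.144 to 0.067 (Gria4), -0.187 to 0.006 (Cacng4), -0.022 to 0.185 (Cacng8), -0.066 to 0.525 (Cacng6), -0.289 to 0.138 (Grip1), -0.099 to 0.04 (Adar) and -0.23 to 0.033 (Adarb2). Per kb of merged exons, Gria2 ranked 3, Gria1 ranked 1, Gria4 ranked 2, Cacng8 ranked 9, Cacng2 ranked 6, Cacng4 ranked 7 and Cacng7 ranked 8. Mean shares over 8 libraries moved from 49.9% to 37.2% (Gria1), 22.5% to 43.5% (Gria2), 9.59% to 8.14% (Gria3), 18.0% to 11.2% (Gria4), 33.5% to 17.6% (Cacng2), 28.8% to 19.6% (Cacng3), 8.30% to 13.7% (Cacng5), 7.41% to 14.1% (Cacng7) and 6.93% to 18.7% (Cacng8) when computed per kb of gene body. Scaling moved the median of all genes to at most -0.03. Depth limited Cacng1 and Cacng6 most among the named genes of the Cacng family, with 10 to 74 counts per library and 95% intervals of -1.21 to 0.38 and -0.76 to 1.09.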
